A study of Drosophila melanogaster with 6 samples.

Results

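The genes described here encode proteins of the cytosolic ribosome of Drosophila melanogaster or, like RpL24-like and RpL7-like, carry names of such proteins. They were chosen by name: every gene of the count table called RpL or RpS followed by a digit, with RpLP0, RpLP1 and RpLP2 of the large subunit stalk and sta (stubarista), the fly gene for the small subunit protein RpSA. This gave 88 of the 13189 genes in the table, 51 of the large subunit and 37 of the small subunit, and the rule reads names only. They were counted in 6 libraries of intestinal progenitors, a population of stem cells with their undifferentiated daughters that renews the midgut lining. Sorting used GFP driven by escargot (esg), which codes for a transcription factor of these progenitors. There were 3 libraries whose genotype is labelled Pex5-depleted and 3 control libraries labelled wildtype. Each replicate came from 200 guts and about 40000 sorted GFP-positive cells. The labels call the replicates biological, and they do not give the sex or age of the flies, the full genotypes or the way in which Pex5 was depleted. The Pex5 protein is the import receptor for most peroxisomal enzymes.

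A eukaryotic ribosome has a large subunit, which forms peptide bonds and lets the new chain out through a tunnel, and a small subunit, which binds and reads the mRNA. Each protein is present once per ribosome, apart from the stalk proteins RpLP1 and RpLP2, and cells generally keep the proteins in balance by making similar amounts and degrading the surplus. In flies, loss of 1 copy of many of these genes gives the Minute phenotype of slow growth and thin bristles. Several genes exist as a pair of copies, of which 1 is often active mainly in the germ line.

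The libraries held 2573882 to 4793433 unique molecular identifiers (UMIs), each of which marks 1 captured transcript molecule near its 3′ end. The Pex5 transcript, which checks the labels, had 2, 21 and 41 UMIs in the libraries labelled Pex5-depleted 1, 2 and 3, against 8, 6 and 14 UMIs in control 1, 2 and 3. Its log2 fold change was 1.24 (SE 0.87), and edgeR's quasi-likelihood test gave an adjusted p of 0.607. The transcript level thus did not show a depletion, and these libraries are named by their label only. Progenitor markers were present in every library, with summed levels of 494 to 734 CPM (UMIs scaled to a common library size) in the libraries labelled Pex5-depleted and 323 to 494 CPM in control, and 0 of 8 tested markers changed by edgeR. Of the 8, 6 had positive log2 fold changes and 2 negative ones, Sox21a at -0.12 (SE 0.36) and Sox100B at -0.31 (SE 0.25). E(spl)mbeta-HLH was the largest part of every sum. It had 377, 282 and 494 CPM in libraries labelled Pex5-depleted, against 185, 276 and 246 CPM in control. At an unadjusted p under 0.05 there were 2 higher progenitor markers, and DESeq2 called 2 higher (mira and E(spl)mbeta-HLH). Over all tested genes, 1.65% were called by edgeR (0.833% higher and 0.816% lower), 6.54% were higher at the unadjusted threshold, and 6.0% of genes with an adjusted p were called by DESeq2. Enteroendocrine markers summed to 553 to 997 CPM in libraries labelled Pex5-depleted and to 1051 to 3113 CPM in control, and 3 of 10 tested (Orcokinin, Phm and 7B2) fell. All 10 had negative log2 fold changes, with a median of -1.12. At an unadjusted p under 0.05, 8 were lower by edgeR, beside 6.67% of all tested genes, and DESeq2 called 4 lower. Orcokinin was the largest part of the sums in control 1 and 2, at 2175, 1424 and 234 CPM in control. The libraries labelled Pex5-depleted had 179, 288 and 344 CPM of it. Enterocyte markers summed to 617 to 711 CPM in libraries labelled Pex5-depleted and to 282 to 450 CPM in control, and 2 of 7 tested (Amy-p and Jon25Biii) rose. Of the 7, 6 had positive log2 fold changes and 1 a negative one. The negative one was mex1 at -0.16 (SE 0.22), while Myo31DF lay at 0.02 (SE 0.41). The marker nub had at most 4 UMIs in any library and was not tested. Of the 6 fits without 1 library, the call held in 4 for Jon25Biii, in 2 for Amy-p and Phm and in 1 for Orcokinin and 7B2. Markers of visceral muscle, male germ line and fat body stayed under 10 CPM in sum. The list for the female germ line did so in every library but Pex5-depleted 2, where it summed to 51.3 CPM. Nearly all of that sum was Yp1, Yp2 and Yp3, at 13.7, 7.78 and 28.4 CPM. The germ line genes osk, nos, bam and orb had 2, 1, 1 and 3 UMIs in that library. Haemocyte markers summed to 11.2 to 18.1 CPM in libraries labelled Pex5-depleted and 14.4 to 20.5 CPM in control. Nearly all of this was the 1 gene crq, while Hml had at most 1 UMI and srp at most 4 UMIs in any library. The part of other cell types in the values below was not tested. In bulk libraries such as these, fewer cells of a type and less RNA per cell cannot be told apart.

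Ribosomal protein transcripts were the larger part of everything counted in these cells, in both groups. They took 52.9%, 55.2% and 56.4% of the UMIs in libraries labelled Pex5-depleted 1, 2 and 3, against 56.3%, 56.0% and 55.7% in control 1, 2 and 3. The means were 54.8% ± 1.75 in the libraries labelled Pex5-depleted and 56.0% ± 0.314 in control (SD, n = 3 each), and the groups overlapped. The large subunit accounted for 28.5%, 29.5% and 30.3% of the UMIs in the libraries labelled Pex5-depleted, against 30.4%, 30.2% and 30.7% in control. The small subunit accounted for 24.4%, 25.7% and 26.1% in the libraries labelled Pex5-depleted, against 26.0%, 25.8% and 25.0% in control. Library Pex5-depleted 1 was the lowest of the 6 for both subunits. Within the ribosomal protein UMIs the large subunit held 53.8%, 53.5% and 53.8% in the libraries labelled Pex5-depleted, against 53.9%, 54.0% and 55.1% in control. Control 3 stood highest in this balance, and the other 5 libraries lay close together. The groups did not overlap, but only narrowly, with 53.84% in Pex5-depleted 1 and 53.9% in control 1. That difference was not tested.

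The share of transcripts of the mitochondrial genome lay higher in every library labelled Pex5-depleted than in any control library, a difference that was not tested. They took 8.88%, 8.04% and 9.31% of the UMIs in libraries labelled Pex5-depleted 1, 2 and 3, against 5.84%, 7.44% and 5.63% in control. Outside the mitochondrial genome the ribosomal protein genes held 58.1%, 60.0% and 62.1% in the libraries labelled Pex5-depleted, against 59.8%, 60.5% and 59.0% in control. The control values then lay inside the range of the other group, and the means were 60.1% and 59.8%. Heat shock (Hsp) genes took 3.47%, 4.09% and 3.70% in the libraries labelled Pex5-depleted, against 1.55%, 2.44% and 3.33% in control, a share far smaller than that of the ribosomal protein genes.

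**Figure D1:**
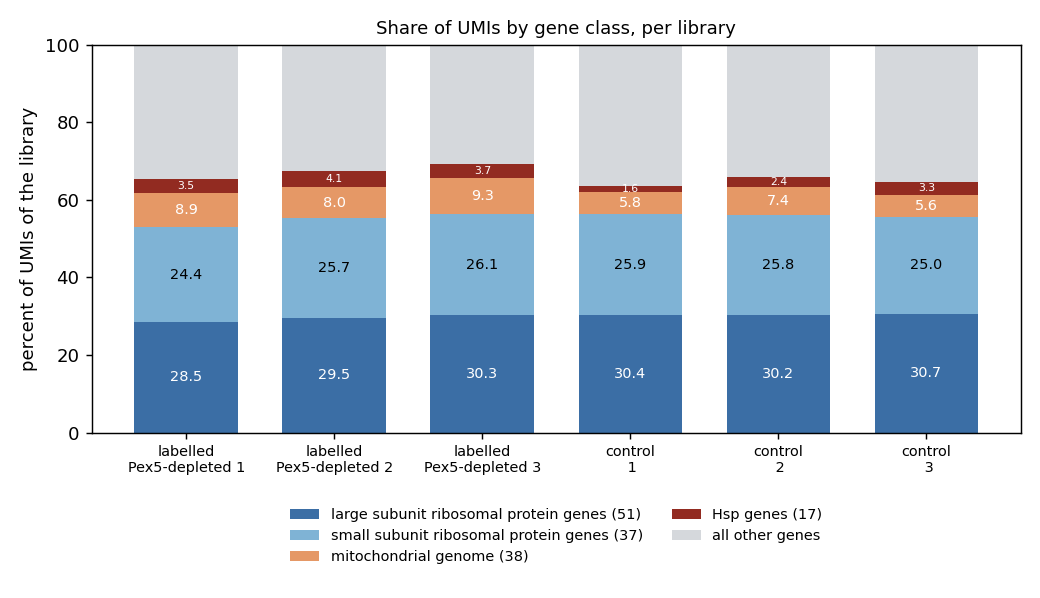
Stacked bars give the percent of the UMIs of each library (y axis) held by large subunit and small subunit ribosomal protein genes, the mitochondrial genome, Hsp genes and all other genes, for the 3 libraries labelled Pex5-depleted and the 3 control libraries. Ribosomal protein genes fill between 52.9% and 56.4% of every bar, and the mitochondrial genome is a wider band in the libraries labelled Pex5-depleted.

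Levels differed widely between the genes of the family, most of all between main genes and second copies. Over the 6 libraries, the 84 genes that passed the filter on low counts ran from 46.8 CPM for RpS15Ab to 27320 CPM for sta, a 584-fold range with a median of 5000 CPM. Without the less abundant gene of each pair of copies or relatives, the other 79 genes started at 1256 CPM (RpL41) and spanned a 21.8-fold range. The range from the 10th to the 90th percentile was 9.04-fold, and 80 of the 84 genes were at or above 1000 CPM. The sta transcript (FBgn0003517, chromosome X, 1481797 to 1483413, minus strand, build dm6) was the highest. Its protein sits near the exit of the mRNA channel and is related to a laminin receptor described in mammals. It stood at 26950, 31520 and 33360 CPM in libraries labelled Pex5-depleted, against 23330, 27290 and 21500 CPM in control. RpS2, at the entry of the mRNA channel, came next with a mean of 20910 CPM. RpL40, whose protein is made as a fusion to ubiquitin, had a mean of 15880 CPM, and RpL14 had 14630 CPM. The 5 highest genes held 17.7% to 18.1% of all ribosomal protein UMIs in the libraries labelled Pex5-depleted and 16.9% to 17.5% in control.

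The order of the genes was nearly the same in both groups, with a Spearman correlation of 0.986 between the group means across the 84 genes, which share their libraries and are not independent. Among the 83 pairs of neighbours in the order by mean level, 80 overlapped in their ranges over the libraries, so these ranges do not separate most neighbours. That count ignores that the 2 genes of a pair share their libraries. The ranges of sta and RpS2 overlapped, for example, while sta stood above RpS2 within every library. The 3′ method counts molecules and not fragments, and the level per kilobase of transcript is given as a second scale. On that scale the leading genes were sta at 24640 CPM per kb, RpL40 at 24090, RpL14 at 23640, RpL27A at 22360 and RpS20 at 22030. The 2 scales ranked the genes alike, with a Spearman correlation of 0.90, and the range from the 10th to the 90th percentile was 9.45-fold per kb.

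The low end was made up of second copies and relatives. The 5 lowest tested genes were RpS15Ab, RpL7-like, RpL34a, RpL24-like and RpL41, with means of 46.8, 411, 646, 991 and 1256 CPM. RpL41 has the shortest product of all ribosomal proteins, and it was the only one of these 5 that is no copy or relative of another member. Per kilobase it moved to place 54 of the 84, at 3924 CPM per kb. Of the 4 members that did not pass the filter, RpS19b, RpL10Aa and RpS28-like are also second copies or relatives and are described with the pairs.

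**Figure D2:**
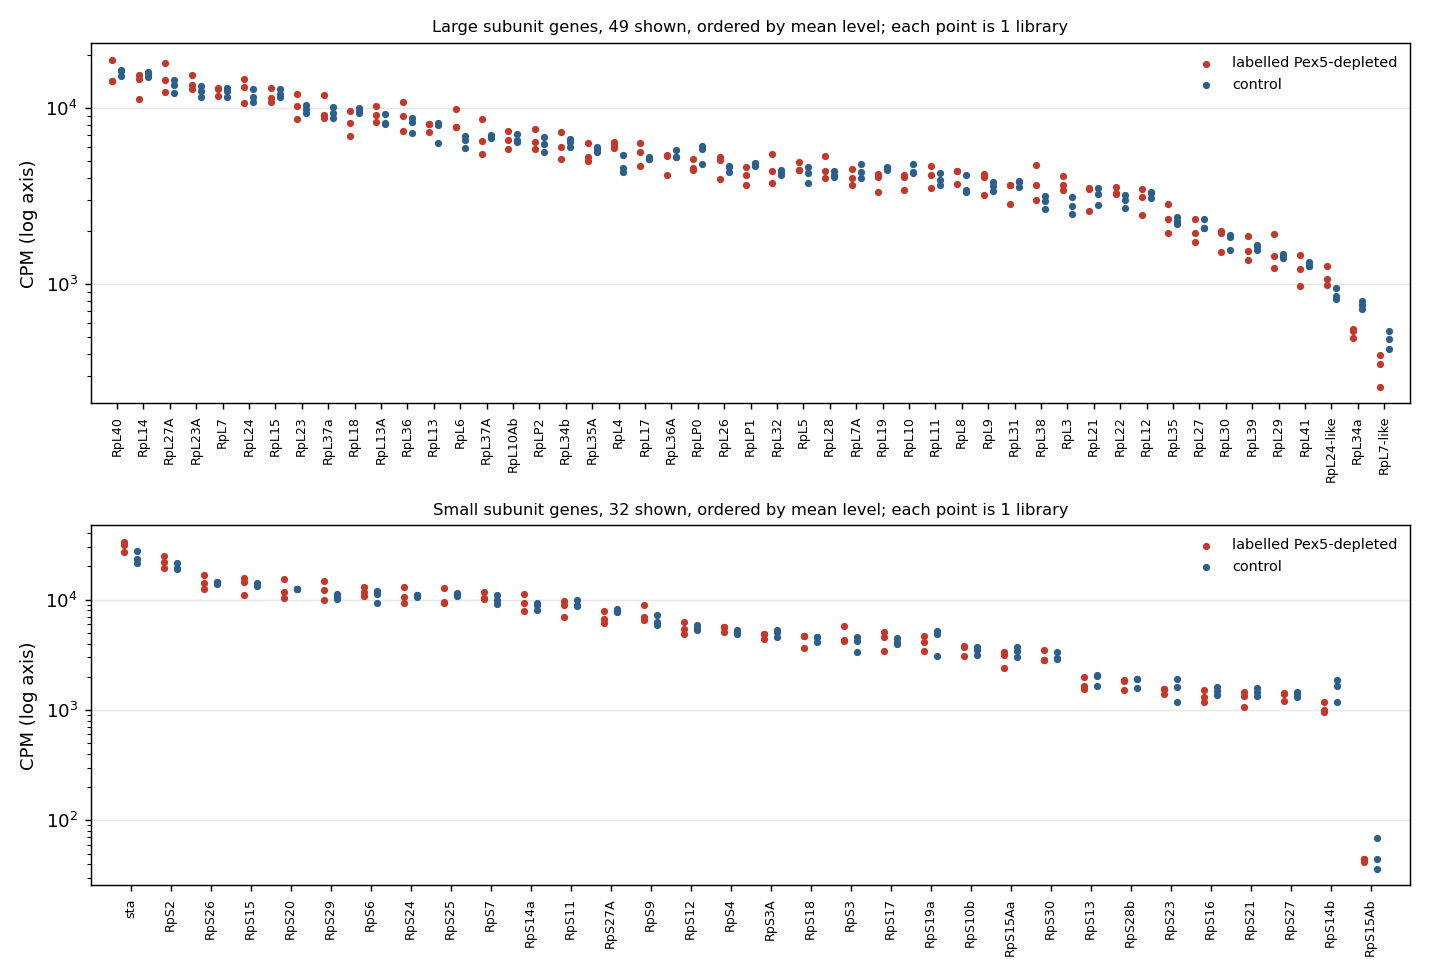
Each point is the level of 1 gene in 1 library in CPM on a log axis, with 49 large subunit genes in the upper panel and 32 small subunit genes in the lower panel, ordered by mean level. For most genes the 3 libraries labelled Pex5-depleted and the 3 control libraries lie on top of each other, while the genes themselves spread from 46.8 CPM (RpS15Ab) to 27320 CPM (sta) in their means.

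No ribosomal protein gene rose or fell past the threshold between the groups. Of the 84 tested genes, 0 had an adjusted p under 0.05 by edgeR's quasi-likelihood test with Benjamini-Hochberg adjustment over all 5639 tested genes, where 1.65% of all tested genes did (0.833% higher and 0.816% lower). At an unadjusted p under 0.05 there were 6 higher and 3 lower, against 13.2% of all tested genes (6.54% higher and 6.67% lower). DESeq2 called 2 of them, RpL34a and RpS14b, both lower, where it called 6.0% of the genes it gave an adjusted p. The same 2 genes were called lower by edgeR on library totals alone, where 1.77% of all genes were called, and with no filter on low counts, where 1.49% were. The median log2 fold change of the 84 genes was 0.01, beside 0.03 over all tested genes. It was 0.05 for the 50 tested large subunit genes and -0.01 for the 34 tested small subunit genes. Without Pex5-depleted 1 the median of the 84 was 0.11, and without Pex5-depleted 3 it was -0.12.

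The changes were also small in size. The log2 fold changes ran from -0.58 to 0.41, and 75 of 84 lay within 0.25 of 0. The median SE was 0.14, and for 65 of the 84 genes the whole 95% interval lay within 0.5 of 0 on the log2 scale. Among genes at or above 1000 CPM, log2 fold changes had an SD of 0.17 over 80 ribosomal protein genes and of 0.39 over 55 other genes, of which 3 were called higher. The sampling error of these 2 sets was similar, with a median SE of 0.14 and 0.15.

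**Figure D3:**
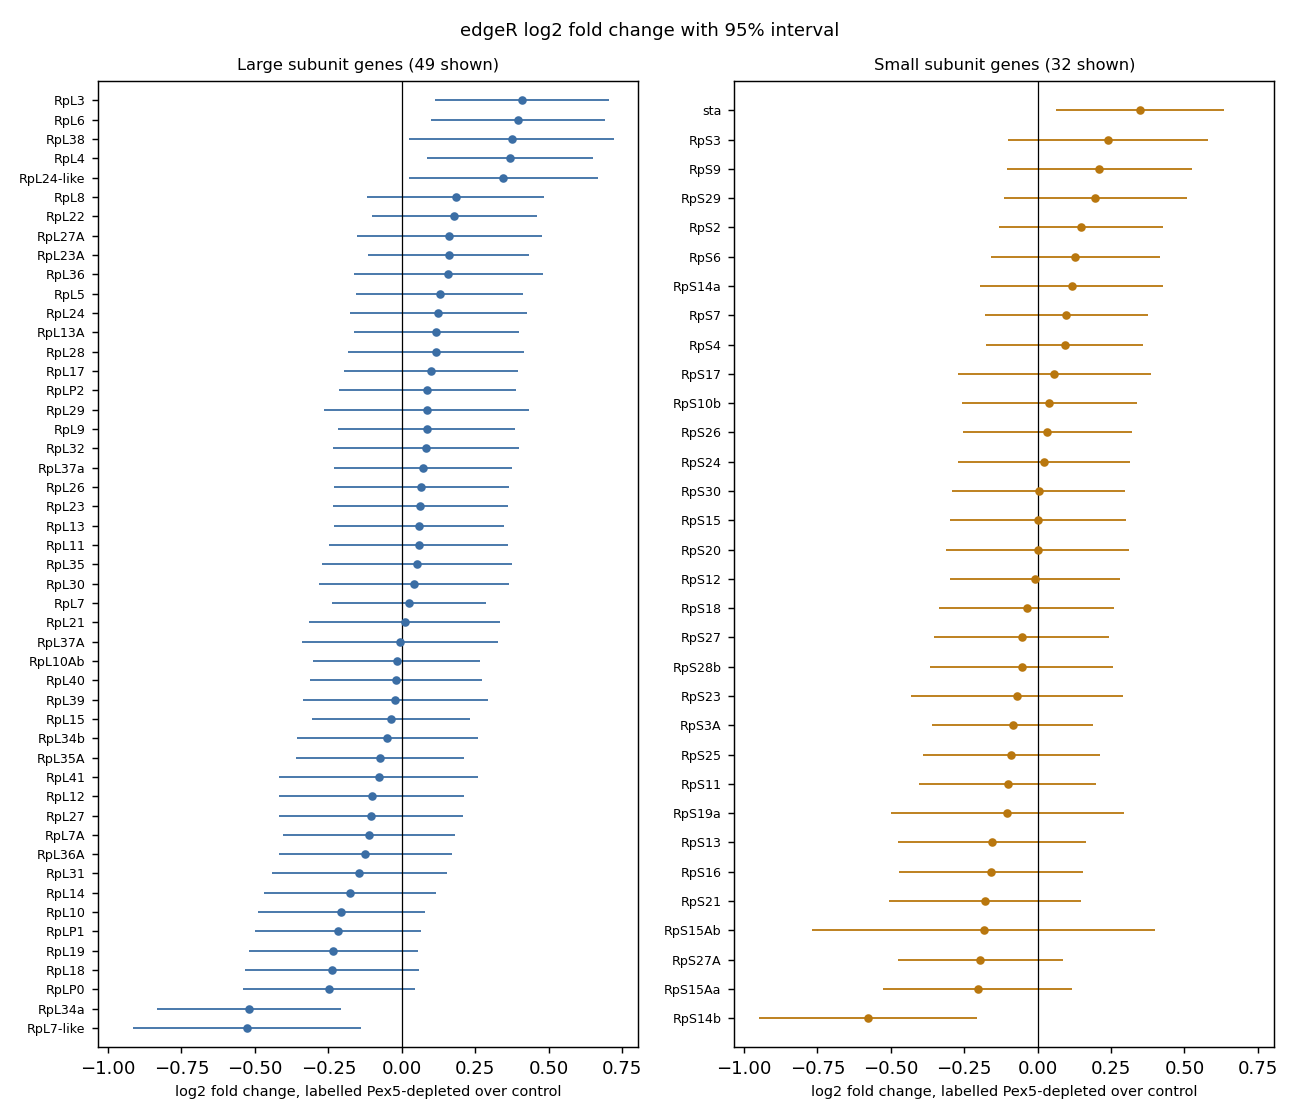
Points are edgeR log2 fold changes of the libraries labelled Pex5-depleted over control (x axis) and lines their 95% intervals, for 49 large subunit genes on the left and 32 small subunit genes on the right, each ordered by value. Most intervals span 0, and the 9 that do not belong to RpL3, RpL6, RpL38, RpL4, RpL24-like and sta on the high side and RpS14b, RpL7-like and RpL34a on the low side.

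Replicates of 1 group differed by a shift that the ribosomal protein genes had in common. Relative to the control mean, the median gene of the family lay at -0.20, 0.01 and 0.19 on the log2 scale in libraries labelled Pex5-depleted 1, 2 and 3, against -0.00, 0.07 and -0.06 in control 1, 2 and 3. Large and small subunit genes shifted together, by -0.19 and -0.20 in Pex5-depleted 1 and by 0.22 and 0.16 in Pex5-depleted 3. Other genes at or above 1000 CPM shifted by -0.04 and 0.20 in the same 2 libraries. The scaling factors of those libraries were the highest and the lowest of the 6, at 1.07 for Pex5-depleted 1 and 0.880 for Pex5-depleted 3. The SD between replicates on the log2 scale had a median of 0.166 over the ribosomal protein genes at or above 1000 CPM and 0.175 over the other genes at that level. Once each library was set relative to its own median of the family, the median SD was 0.091. That step takes a common shift out of the same genes and was not applied to the other genes, so the 2 sets cannot be compared on it. RpS19a was the most variable gene on both scales, and its level in control was 4851, 5220 and 3055 CPM.

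Among large subunit genes, the 4 with the largest positive log2 fold changes were RpL3, RpL6, RpL38 and RpL4, and none passed the test over all genes. RpL3 (FBgn0020910, chromosome 3R, 11221894 to 11225173, plus strand), a protein near the centre that forms the peptide bond, stood at 3430, 3653 and 4083 CPM in libraries labelled Pex5-depleted, against 2514, 3119 and 2774 CPM in control. Every library labelled Pex5-depleted was above every control library. On the log2 scale the fold change was 0.41, with an SE of 0.14, a 95% interval of 0.11 to 0.71 and an edgeR adjusted p of 0.199. Exons of RpL3 overlap those of an antisense RNA and a small nucleolar RNA, and whether the counting used strand is not given in the sources used here.

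RpL6 (FBgn0039857, chromosome 3R, 31594792 to 31596204, minus strand) stood at 7817, 7804 and 9865 CPM in libraries labelled Pex5-depleted, against 5898, 6896 and 6574 CPM in control. RpL4, a protein that lines the exit tunnel, stood at 5909, 6123 and 6408 CPM in libraries labelled Pex5-depleted, against 4342, 5407 and 4533 CPM in control. For both genes the groups did not overlap. The log2 fold change was 0.40 for RpL6 (SE 0.14, edgeR adjusted p 0.209) and 0.37 for RpL4 (SE 0.13, edgeR adjusted p 0.224). RpL38, known in mice for its part in translating Hox mRNAs, stood at 2996, 3648 and 4741 CPM in libraries labelled Pex5-depleted, against 3146, 2964 and 2675 CPM in control. Here the groups overlapped through Pex5-depleted 1, and the log2 fold change was 0.37 (SE 0.16, edgeR adjusted p 0.339).

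On the low side of the large subunit, RpL18, RpL19, RpLP1 and RpL10 had log2 fold changes between -0.24 and -0.21. RpL18 stood at 6903, 8226 and 9590 CPM in libraries labelled Pex5-depleted, against 9367, 10000 and 9757 CPM in control, and the groups overlapped. Its log2 fold change was -0.24 (SE 0.14, edgeR adjusted p 0.516). RpL19, at the tunnel exit, stood at 3336, 4222 and 4056 CPM in libraries labelled Pex5-depleted, against 4562, 4619 and 4464 CPM in control, without overlap. RpL10, which joins the large subunit late in its assembly, stood at 3436, 4158 and 4052 CPM in libraries labelled Pex5-depleted, against 4824, 4340 and 4263 CPM in control, also without overlap. In all, 5 genes had every library labelled Pex5-depleted above control (RpL3, RpL4, RpL6, RpL22 and RpL24-like) and 5 had every one below (RpL7-like, RpL34a, RpL19, RpLP1 and RpL10). All 10 are large subunit genes by name, and over all tested genes 9.74% lay above and 9.42% below without overlap.

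The stalk is the flexible arm of the large subunit that recruits the elongation factors, with RpLP0 at its base and RpLP1 and RpLP2 bound to it. RpLP0 stood at 4424, 4559 and 5148 CPM in libraries labelled Pex5-depleted, against 4822, 6078 and 5867 CPM in control, with a log2 fold change of -0.25 (SE 0.14, edgeR adjusted p 0.480). RpLP1 stood at 3650, 4157 and 4592 CPM in libraries labelled Pex5-depleted, against 4799, 4896 and 4702 CPM in control (log2 fold change -0.22, SE 0.13, edgeR adjusted p 0.542). RpLP2 stood at 5827, 6374 and 7631 CPM in libraries labelled Pex5-depleted, against 6204, 6858 and 5619 CPM in control (log2 fold change 0.09, SE 0.14, edgeR adjusted p 0.858). The groups overlapped for RpLP0 and RpLP2 and not for RpLP1. Ratios within a library do not depend on its scaling. The UMIs of RpLP2 per UMI of RpLP0 were 1.32, 1.40 and 1.48 in the libraries labelled Pex5-depleted, against 1.29, 1.13 and 0.958 in control, so the groups lay apart, a difference that was not tested. RpLP1 per RpLP0 was 0.825, 0.912 and 0.892 in the libraries labelled Pex5-depleted, against 0.995, 0.806 and 0.801 in control, with overlap.

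RpL40 and RpS27A both encode a ribosomal protein fused to ubiquitin, the tag for protein degradation, which is cut off after synthesis. RpL40 stood at 14320, 14190 and 18800 CPM in libraries labelled Pex5-depleted, against 16230, 16460 and 15260 CPM in control, with a log2 fold change of -0.02 (SE 0.14, edgeR adjusted p 0.979). RpS27A stood at 6173, 6734 and 7866 CPM in libraries labelled Pex5-depleted, against 8154, 7756 and 7871 CPM in control, with a log2 fold change of -0.20 (SE 0.13, edgeR adjusted p 0.590). The groups overlapped for both genes. RpL40 had about double the UMIs of RpS27A everywhere, with ratios of 2.32, 2.11 and 2.39 in the libraries labelled Pex5-depleted, against 1.99, 2.12 and 1.94 in control. RpL5 and RpL11, which enter the ribosome together with the 5S RNA, had a ratio of 1.27, 1.07 and 1.06 in the libraries labelled Pex5-depleted, against 1.09, 1.08 and 1.04 in control, and only Pex5-depleted 1 stood apart.

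Among small subunit genes, sta had the largest positive log2 fold change at 0.35, with an SE of 0.13, a 95% interval of 0.06 to 0.63 and an edgeR adjusted p of 0.264. Its groups overlapped between Pex5-depleted 1 at 26950 CPM and control 2 at 27290 CPM. The genes of the mRNA entry and decoding region (RpS2, RpS3, RpS9, RpS15, RpS23 and RpS30) had log2 fold changes from -0.07 to 0.24, with a median of 0.08. Of these 6, 5 were positive, among them RpS15 and RpS30 at 0.00, beside 44 of 84 over the family. The 6 genes grouped at the platform and mRNA exit, with sta and the RpS14 copies among them, had 3 positive values and a median of -0.01, and both groupings were made after values were seen. RpS3 and RpS9, both at the mRNA entry, were the highest of them, with 4229, 4277 and 5717 CPM for RpS3 in the libraries labelled Pex5-depleted, against 4174, 4563 and 3318 CPM in control. RpS6, the best known substrate of S6 kinase downstream of the growth regulator TOR, stood at 11730, 10850 and 12940 CPM in libraries labelled Pex5-depleted, against 11140, 11980 and 9365 CPM in control (log2 fold change 0.13, SE 0.14). No small subunit gene had groups without overlap in CPM.

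Setting each gene relative to the summed ribosomal protein UMIs of its library removes the shift that the family had in common. On that scale 27 of the 84 genes had groups that did not overlap, 9 above and 18 below, against 18.4% of all tested genes (8.28% above and 10.1% below). A share within a sum is not independent of the other members, and this scale was chosen after the shift between libraries had been seen. RpL3, RpL4, RpL6, RpL38, RpL23A, RpL24-like, RpS2, RpS29 and sta made up the 9 above. The 18 below included RpL7-like, RpL10, RpL12, RpL14, RpL18, RpL19, RpL31, RpL34a, RpL35A, RpL41 and RpLP1 of the large subunit and RpS14b, RpS15Aa, RpS16, RpS21 and RpS27A of the small subunit.

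The sta transcript held 5.45%, 5.67% and 5.21% of the ribosomal protein UMIs in the libraries labelled Pex5-depleted, against 4.31%, 4.74% and 4.08% in control. RpL18 held 1.40%, 1.48% and 1.50% in the libraries labelled Pex5-depleted, against 1.73%, 1.74% and 1.85% in control. RpLP1 held 0.738%, 0.747% and 0.718% in the libraries labelled Pex5-depleted, against 0.887%, 0.851% and 0.892% in control. For all 3 genes the groups lay fully apart. In the edgeR fit scaled to these sums, sta rose with a log2 fold change of 0.31 (SE 0.07) and an adjusted p of 0.0274, where 1.15% of all tested genes were called. RpS14b, RpL6 and RpL34a had adjusted p of 0.0502, 0.0521 and 0.0635 there and did not pass.

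**Figure D4:**
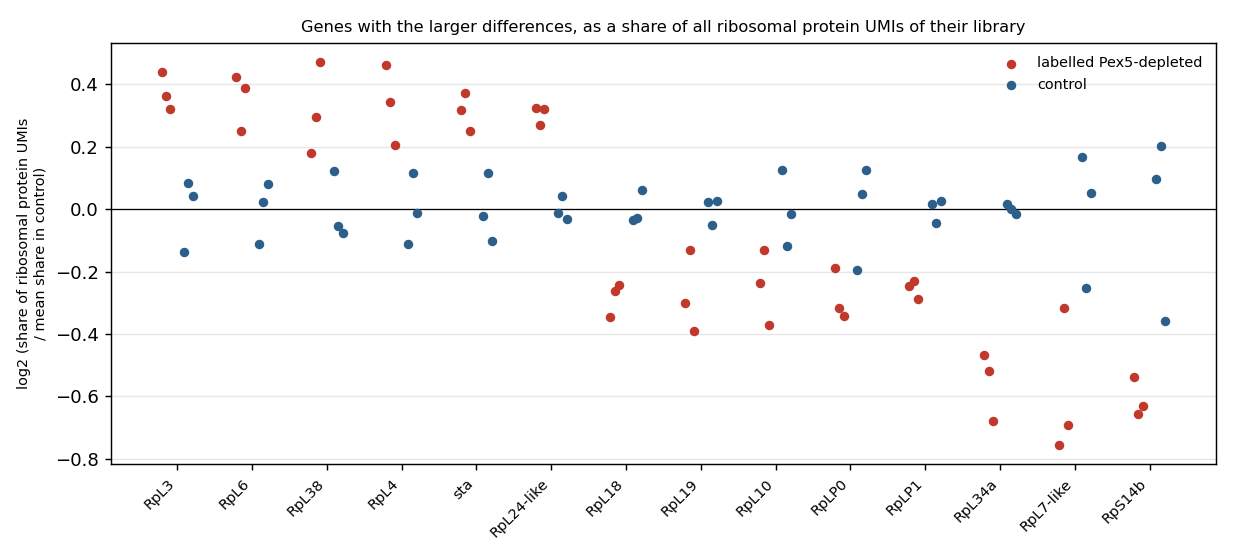
For 14 genes with larger differences, points give the log2 ratio of the gene's share of ribosomal protein UMIs in each library to its mean share in control, for the 3 libraries labelled Pex5-depleted and the 3 control libraries. The groups lie apart for all of them but RpLP0, with the libraries labelled Pex5-depleted above control from RpL3 to RpL24-like and below it for RpL18, RpL19, RpL10, RpLP1, RpL34a, RpL7-like and RpS14b.

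The largest differences of the family were in less abundant genes that have a closely related partner. RpS14b (FBgn0004404, chromosome X, 7934898 to 7935792, plus strand) lies directly beside its copy RpS14a (FBgn0004403, chromosome X, 7933742 to 7934677, plus strand), and both encode a protein of the small subunit platform. RpS14b stood at 968, 1002 and 1174 CPM in libraries labelled Pex5-depleted, against 1642, 1880 and 1169 CPM in control. The groups overlapped through Pex5-depleted 3 and control 3 only. RpS14b had a log2 fold change of -0.58, with an SE of 0.17, a 95% interval of -0.95 to -0.21 and an edgeR adjusted p of 0.138, and RpS14a had one of 0.12 (SE 0.15). As a share of the pair, RpS14b held 10.8%, 9.77% and 9.40% of the UMIs in the libraries labelled Pex5-depleted, against 15.5%, 16.7% and 12.7% in control, without overlap. The SD of this share was 0.749 percentage points in the libraries labelled Pex5-depleted and 2.03 in control (n = 3 each). Reads that mapped to several loci were dropped from the counting, so the split between near-identical copies such as these is uncertain.

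RpL34a (FBgn0039406, chromosome 3R, 26058420 to 26059267, minus strand) is the less abundant gene for the large subunit protein that RpL34b also encodes. It stood at 497, 540 and 556 CPM in libraries labelled Pex5-depleted, against 760, 800 and 725 CPM in control, and the groups lay well apart. Its log2 fold change of -0.52 (SE 0.15, 95% interval -0.83 to -0.21) had the lowest adjusted p of the family, 0.106 by edgeR. RpL34b stood at 5146, 6041 and 7298 CPM in libraries labelled Pex5-depleted, against 6680, 6404 and 6036 CPM in control, with overlap. RpL34a thus held 8.81%, 8.21% and 7.08% of the pair in the libraries labelled Pex5-depleted, against 10.2%, 11.1% and 10.7% in control.

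RpL24-like and RpL7-like carry names of ribosomal proteins, but their closest yeast relatives, Rlp24 and Rlp7, are factors of large subunit assembly. RpL24-like stood at 986, 1068 and 1274 CPM in libraries labelled Pex5-depleted, against 853, 944 and 821 CPM in control (log2 fold change 0.35, SE 0.15, edgeR adjusted p 0.337). RpL7-like stood at 260, 397 and 352 CPM in libraries labelled Pex5-depleted, against 540, 429 and 486 CPM in control (log2 fold change -0.53, SE 0.18, edgeR adjusted p 0.206). Neither pair of groups overlapped, and the fitted values ran in opposite directions. RpL24-like held 8.47%, 7.52% and 8.04% of its pair with RpL24 in the libraries labelled Pex5-depleted, against 6.88%, 6.84% and 7.09% in control. RpL7-like held 2.18%, 2.99% and 2.65% of its pair with RpL7 in the libraries labelled Pex5-depleted, against 4.49%, 3.19% and 3.76% in control.

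A pair of copies that did not separate was RpS15A, a protein of the small subunit. RpS15Ab held 1.81%, 1.40% and 1.25% of its UMIs in the libraries labelled Pex5-depleted, against 1.80%, 1.04% and 1.43% in control. Over the 5 pairs with at least 10 UMIs of the lesser gene in every library, a two-sided exact permutation test gave p = 0.10 for RpS14, RpL34, RpL24 and RpL7, which is the smallest p that 3 against 3 libraries allow, and 0.90 for RpS15A. Adjusted over the 5 pairs, the first 4 had p = 0.125 by the same exact test, so no pair passed. The differences in share were -4.98, -2.65, 1.08 and -1.21 percentage points for RpS14b, RpL34a, RpL24-like and RpL7-like.

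**Figure D5:**
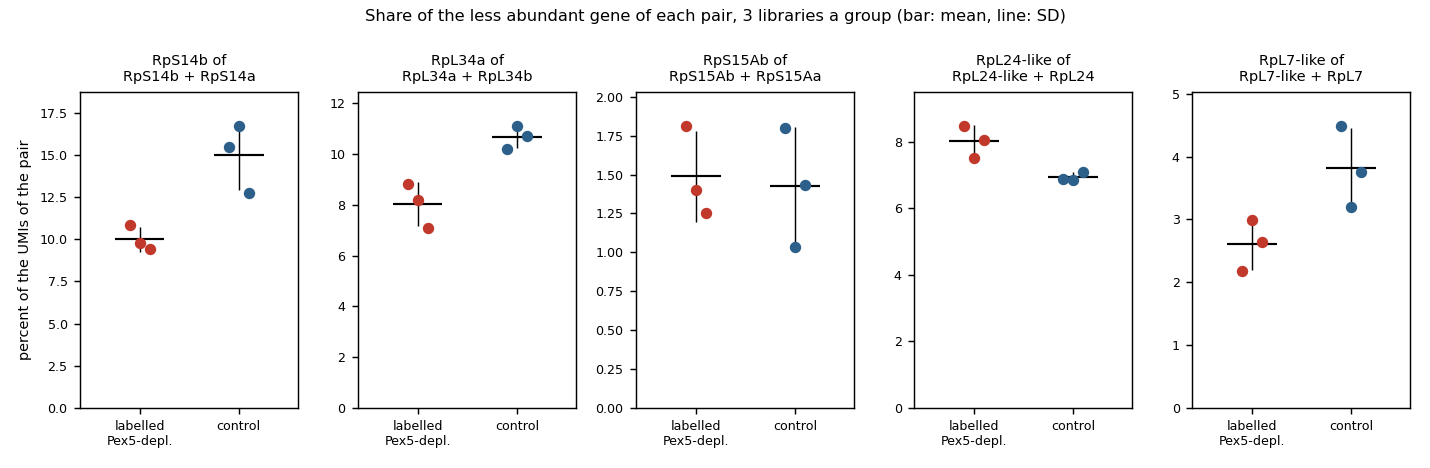
The percent of the UMIs of a pair that came from its less abundant gene is plotted per library for the 5 tested pairs, with the mean (bar) and SD (line) of the 3 libraries labelled Pex5-depleted and of the 3 control libraries. The groups lie apart for RpS14b, RpL34a, RpL24-like and RpL7-like and overlap for RpS15Ab.

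Other second copies and relatives were almost silent in these cells. RpS19b had 5 UMIs in control 2 and 0 in the other 5 libraries. RpL10Aa had 0, 8 and 0 UMIs in the libraries labelled Pex5-depleted, against 0, 0 and 1 UMIs in control. RpS28-like had 0 UMIs in the 3 libraries labelled Pex5-depleted, against 8, 0 and 0 UMIs in control. A count of 0 in a library allows up to 3 UMIs, which is 0.626 to 1.17 CPM here and covers counting error only. The more abundant partners RpS19a, RpL10Ab and RpS28b had mean levels of 4225, 6657 and 1759 CPM. Without the lesser gene of each pair, the remaining 79 genes had log2 fold changes from -0.25 to 0.41 with a median of 0.02.

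Genes that act with the ribosome were examined as 4 lists. Of 12 translation elongation and ribosome-associated genes, 11 were tested and 1 fell, where 0.816% of all tested genes fell. That gene was eEF1delta, a subunit of the exchange factor that reloads elongation factor eEF1A with GTP. It stood at 97.3, 68.9 and 59.8 CPM in libraries labelled Pex5-depleted, against 171, 173 and 189 CPM in control, without overlap (log2 fold change -1.24, SE 0.21, edgeR adjusted p 0.00951). The call was lost without Pex5-depleted 2, Pex5-depleted 3 or control 1, with adjusted p of 0.0665, 0.0553 and 0.0507. The other subunits eEF1beta and eEF1gamma had log2 fold changes of -0.38 and -0.04 with adjusted p of 0.224 and 0.947 by edgeR. eEF2, which moves the ribosome along the mRNA, had 1126, 806 and 785 CPM in libraries labelled Pex5-depleted, against 694, 640 and 605 CPM in control. Its groups lay apart, but its adjusted p was 0.205 by edgeR.

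All 19 subunit assembly genes were tested, and 1 rose, where 0.833% of all tested genes rose. Non1, the relative of a GTPase that acts in large subunit assembly in yeast, stood at 557, 446 and 491 CPM in libraries labelled Pex5-depleted, against 237, 243 and 163 CPM in control. Its log2 fold change was 1.22 (SE 0.19, edgeR adjusted p 0.00476), and the call held in each of the 6 fits without 1 library. The median of the list was -0.00. The 73 genes for mitochondrial ribosomal proteins, which build the separate ribosome inside mitochondria, were all tested, and 0 were called by edgeR, with 3 higher and 4 lower at an unadjusted p under 0.05 and 1 called in each direction by DESeq2. Over all tested genes 6.54% were higher and 6.67% lower at that unadjusted threshold, and DESeq2 called 6.0%. Their log2 fold changes ran from -1.05 to 0.77 with a median of -0.09 and a median SE of 0.27, which is wider than for the cytosolic genes, at a median level of 48.0 CPM.

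Of 15 regulators of growth and ribosome production, 12 were tested, and 0 passed the test by edgeR at the adjusted or the unadjusted threshold, as by DESeq2. Myc, the transcription factor that drives ribosome production, stood at 102, 113 and 63.5 CPM in libraries labelled Pex5-depleted, against 119, 124 and 84.4 CPM in control (log2 fold change -0.22, SE 0.24). Its partner Max had a log2 fold change of -0.51 (SE 0.30), and Thor, the 4E-BP that restrains translation, had 0.11 (SE 0.20). Xrp1 and Irbp18, the pair of factors induced when ribosomal proteins are in short supply in flies, had log2 fold changes of -0.05 (SE 0.26) and -0.26 (SE 0.32). S6k and raptor of the TOR pathway had 0.15 and 0.08, and Tif-IA, needed for ribosomal RNA transcription, had 0.09. The core promoter factors M1BP, Dref and Trf2 had -0.42, 0.34 and -0.25, and larp, which binds the mRNAs of this family, had 0.24. Every one of these 12 had an adjusted p of 0.513 or more by edgeR. Mnt, Tor and S6kII had too few UMIs to be tested.

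Gene length, position and neighbours were compared as descriptions. Across the 84 tested genes the log2 fold change had a Spearman correlation of 0.20 with coding length, and between 0.09 and 0.31 when 1 library was left out. Over 46 other genes at or above 1000 CPM the same correlation was 0.31. The 10 genes with the longest coding sequence had a median log2 fold change of 0.15, with 7 positive, and the 10 with the shortest had a median of -0.01, with 4 positive. Within the small subunit the log2 fold change had a Spearman correlation of 0.60 with level over 34 genes, and within the large subunit 0.09 over 50 genes. The level is a mean over the same 6 libraries that give the fold change, and the genes are not independent. This correlation with level was not repeated without 1 library or over other genes. The genes are spread over every large chromosome arm, with 19 on 2L, 18 on 2R, 14 on 3L, 21 on 3R and 15 on X, and 1 (RpS3A) on chromosome 4. Over the 5 large arms, the median log2 fold change of the tested genes lay between -0.05 on 2R and 0.06 on 3R. Exons of 31 members overlap those of another gene, for 10 of them on the same strand.

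The authors' deposited table of fold changes differs from these values. It lists 87 of the 88 genes with a signed linear fold, and its header does not say which samples stand on either side. A negative fold is given for 85 of the 87 genes in the authors' deposited table, with a median of -7.26, beside 76.4% negative and a median of -2.62 over the genes tested here. The positive entries in the authors' deposited table are RpS6 at 1.35 and RpS19b at 26.4. Mitochondrial ribosomal protein genes are negative for 71 of 72 genes in the authors' deposited table, with a median of -6.99. No such shift of either family was present between the deposited UMI counts of the 2 groups, and what the 2 sides of that table are was not tested.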

How the data were processed

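The authors deposited UMI counts per gene and well, made with the QIAseq UPX 3′ kit per the labels' protocols. Per the submitters' processing notes, HISAT2, StringTie and DESeq2 were used with build dm6, and roles and versions are not given in the sources used here. Per the deposited run metrics, 0.717% of the run's reads were dropped for mapping to several loci. The 29 columns of other wells and 6 spike-in rows (7 UMIs) were not used. The authors' deposited table gives fold as a signed linear score, with p-values whose comparison its header does not name.

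Members and lists were chosen with earlier results of these data known, and the role groups, ratios and the scaling to ribosomal protein UMIs after values were seen. Named were called genes, the 5 highest and 5 lowest by level, the 5 largest changes each way, copies, stalk genes, sta, ubiquitin fusions and the tested regulators. Other genes named (RpL18, RpL19, RpL10, RpL5, RpL11, RpS3, RpS9, RpS6, RpS19a, RpL27A, RpS20, RpS3A, eEF2, eEF1beta and eEF1gamma) were chosen after their values were seen. So were those listed for groups without overlap (RpL12, RpL22, RpL23A, RpL31, RpL35A, RpS16, RpS21 and RpS29). The same holds for RpS15, RpS23 and RpS30 of a role group and for single cell type markers that were not called. edgeR 4.0.16 in R 4.3.3 (quasi-likelihood test, TMM, expression filter with a minimum count of 10, no covariate) tested 5639 genes over all 6 libraries, with Benjamini-Hochberg adjustment at 0.05, and was tested on simulated data. CPM values use the library totals times the TMM factor, and ± gives the SD. Alternatives were DESeq2 1.42.0, other scalings, no filter, a replicate block and leaving out each library. Depth was 2573882 to 4793433 UMIs per library. Replicates of the same number did not deviate together, so the numbers were not used as pairs.

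Positions were read from the UMI table (dm6), and lengths are from Ensembl release 115 of the BDGP6 annotation, which held 87 of the 88 IDs. RpL37a and RpL37A are different genes. RpS10a, RpS28a, RpL22-like and promoter letters were not analysed here. The own values of a few members are not reported here, while counts, medians and sums are over all members.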

Additional observations from a re-analysis of the deposited data

How the results depend on the processing

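All genes called higher by edgeR were 47, and 87 with DESeq2, 88 with no filter and 12 to 47 without 1 library. Genes called lower were 46, and 120, 109, 23 with the replicate block and 5 to 33 without 1 library. The block called 58 genes in all, 0 of them ribosomal protein genes, where same-numbered libraries had deviation correlations of -0.027, -0.026 and -0.057. Ribosomal protein genes called higher were 0, and 1 (sta) when scaled to their summed UMIs, an alternative chosen after seeing the data. Those called lower were 0, and 2 (RpL34a and RpS14b) with DESeq2 (adjusted p 0.00616 and 0.0242), with library totals alone (0.0394 and 0.0368, where 1.77% of genes were called) and with no filter (0.0421 and 0.00439, where 1.49% were called). Over the fits without 1 library, 0 were called either way and adjusted p ran from 0.154 to 0.274 for RpL34a and from 0.0580 to 0.367 for RpS14b. Outside the mitochondrial genome the shares were 60.1% in the libraries labelled Pex5-depleted and 59.8% in control. Without 1 library the median log2 fold change of the family ran from -0.12 to 0.11. Of 44 named tested genes, 27 kept their sign under all 13 settings. The sign of RpL7, at 0.02, turned with library totals alone (-0.040), with no filter (-0.038) and with the family scaling (-0.0077), and that of raptor with library totals (-0.038), the block (-0.12) and the family scaling (-0.024). Without 1 library the log2 fold change ranged from -0.19 to 0.048 for RpL40, -0.39 to 0.12 for RpS15Ab, -0.052 to 0.23 for RpS14a, -0.21 to 0.064 for RpL34b, -0.31 to 0.023 for RpS19a, -0.13 to 0.063 for RpL10Ab, -0.15 to 0.031 for RpS28b, -0.0035 to 0.24 for RpL24, -0.031 to 0.069 for RpL7 and -0.053 to 0.17 for RpLP2. It ranged from -0.64 to 0.47 for raptor, -0.11 to 0.26 for S6k, -0.081 to 0.23 for Thor, -0.0030 to 0.20 for Tif-IA, -0.47 to 0.0059 for Trf2, -0.28 to 0.18 for Xrp1 and -0.48 to 0.16 for Irbp18. The cause was not tested.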
